A study of Mus musculus with 6 samples.

Results

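Internal exons that lie alone in long introns were compared with the intron on either side of them. The exons were those of protein-coding genes on chromosomes 1 to 19 that are neither first nor last in any annotated transcript, are 100 to 300 bp long, have at least 1 kb of intron on both sides and lie at least 5 kb from any annotated transcription start site (TSS). Of 308587 distinct exons of these genes, 177060 were internal, 108946 of those had the required length, 31336 had no other exon within 1 kb, and 25024 positions met every condition. They belonged to 7259 genes, with a median of 2 exons per gene and a maximum of 54. No read count was used to choose them.

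The reads came from hippocampal chromatin of C57/BL6 mice, 6 months old by the labels, in 6 libraries. Fear-conditioned mice (FC) were given foot shocks in a training context on 2 days, control mice (CON) saw the context without shock, and hippocampi were collected 1 h after a memory test on day 3. Each group had a library immunoprecipitated with an antibody to histone H4 acetylated at lysine 5 (H4K5ac-ChIP), a mock immunoprecipitate with IgG (IgG-IP) and DNA that was not immunoprecipitated (input). The methods of the study name 3 hippocampi in a group, but 1 library was deposited for each antibody and group. No spread between animals is therefore known, and no test was made. Every interval given is a 95% interval that covers counting error at most, without the differences between exons or genes. A difference between such intervals is a difference between libraries, and conditioning and library cannot be told apart.

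An exon is kept in the mature RNA because the spliceosome recognises the sequences at its borders, a polypyrimidine tract and AG at the end of the intron before it and GT at the start of the intron after it. Exons usually have a higher GC content than introns, and nucleosomes, whose H4 tails carry the acetyl mark, tend to sit over them. H4K5ac is a mark of open and transcribed chromatin and is enriched around promoters and along active genes. The study also found it at many intergenic sites. Any comparison of exon with intron is therefore also a comparison of sequence of differing composition, which sequencing itself can read with differing efficiency.

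The sequences of 8 exons show this composition. They are the exons with the highest and the lowest GC content relative to their own flank in the genes with the most such exons among glutamate receptors (Grik4, a kainate receptor subunit), synaptic adhesion genes (Cntnap2, a neurexin family protein of axons), calcium signalling genes (Ryr2, a calcium release channel) and cilia genes (Dnahc8, an axonemal dynein heavy chain). Each is shown 5′ to 3′ on its own strand of mm9, with the exon in capitals and 20 bp of intron on each side in lower case, and the position is that of the exon. All 8 are coding and are kept in every annotated transcript that spans them.
Grik4 exon 12 of 21, chr9:42405937-42406044, minus strand: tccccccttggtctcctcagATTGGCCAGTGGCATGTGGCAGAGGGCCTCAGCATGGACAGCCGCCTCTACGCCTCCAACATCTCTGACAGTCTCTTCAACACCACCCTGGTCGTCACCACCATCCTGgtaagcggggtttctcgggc
Grik4 exon 20 of 21, chr9:42332563-42332681, minus strand: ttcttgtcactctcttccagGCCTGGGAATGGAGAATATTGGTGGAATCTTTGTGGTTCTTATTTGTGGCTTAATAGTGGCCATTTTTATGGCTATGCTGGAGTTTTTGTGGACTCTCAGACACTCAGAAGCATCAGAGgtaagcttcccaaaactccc
Cntnap2 exon 4 of 24, chr6:45870791-45870938, plus strand: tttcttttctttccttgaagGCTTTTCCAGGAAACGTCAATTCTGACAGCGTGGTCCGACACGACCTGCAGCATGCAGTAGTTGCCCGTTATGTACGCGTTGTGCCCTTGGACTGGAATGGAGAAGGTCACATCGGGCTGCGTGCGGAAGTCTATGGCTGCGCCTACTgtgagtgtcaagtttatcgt
Cntnap2 exon 5 of 24, chr6:45941875-45942078, plus strand: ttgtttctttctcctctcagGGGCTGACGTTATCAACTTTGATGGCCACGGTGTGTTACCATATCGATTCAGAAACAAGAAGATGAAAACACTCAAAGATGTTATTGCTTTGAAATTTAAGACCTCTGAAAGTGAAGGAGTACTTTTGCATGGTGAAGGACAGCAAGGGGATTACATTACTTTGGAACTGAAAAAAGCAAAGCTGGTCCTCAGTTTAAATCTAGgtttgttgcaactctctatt
Ryr2 exon 3 of 105, chr13:12010578-12010682, minus strand: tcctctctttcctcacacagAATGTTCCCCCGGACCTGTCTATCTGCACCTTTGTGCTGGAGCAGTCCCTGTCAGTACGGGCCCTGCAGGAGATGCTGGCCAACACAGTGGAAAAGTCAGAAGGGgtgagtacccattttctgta
Ryr2 exon 100 of 105, chr13:11659115-11659249, minus strand: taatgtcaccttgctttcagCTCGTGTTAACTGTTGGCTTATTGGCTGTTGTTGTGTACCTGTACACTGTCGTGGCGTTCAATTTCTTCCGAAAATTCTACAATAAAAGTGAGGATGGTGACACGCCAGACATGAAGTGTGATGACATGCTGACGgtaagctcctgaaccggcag
Dnahc8 exon 26 of 93, chr17:30838790-30838976, plus strand: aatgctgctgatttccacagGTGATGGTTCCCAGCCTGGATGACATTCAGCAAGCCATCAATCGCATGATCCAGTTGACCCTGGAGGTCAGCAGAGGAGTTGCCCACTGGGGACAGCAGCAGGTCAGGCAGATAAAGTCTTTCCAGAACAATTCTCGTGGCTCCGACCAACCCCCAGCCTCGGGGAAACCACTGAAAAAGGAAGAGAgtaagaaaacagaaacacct
Dnahc8 exon 12 of 93, chr17:30798931-30799077, plus strand: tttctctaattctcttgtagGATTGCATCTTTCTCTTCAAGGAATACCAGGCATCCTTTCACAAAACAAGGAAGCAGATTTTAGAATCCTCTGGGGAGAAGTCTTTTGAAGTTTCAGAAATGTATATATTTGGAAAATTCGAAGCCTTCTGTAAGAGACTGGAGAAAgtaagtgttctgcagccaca

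The GC content of these exons and of the intron from 300 to 1000 bp on both sides, which is called the flank throughout, was 59.3% and 44.0% for Grik4 exon 12 and 42.9% and 43.7% for Grik4 exon 20. It was 56.1% and 37.2% for Cntnap2 exon 4, and 39.2% and 36.1% for Cntnap2 exon 5. Ryr2 exon 3 had 57.1% against 34.3% in its flank, while Ryr2 exon 100 had 44.4% in both. The widest spread was in Dnahc8, from 54.5% against 33.6% for exon 26 to 37.4% against 50.1% for exon 12.

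Single exons held few reads. Cntnap2 exon 4 had 2 reads in FC and 0 in CON H4K5ac-ChIP, 0 in both IgG-IP libraries, and 11 and 3 in FC and CON input, with 10, 14, 10, 2, 17 and 16 reads in its flank in the same order. Its exon-to-flank ratio, the read density of the exon divided by that of its flank, was 6.12 (2.59 to 13.9) in FC input and 1.77 (0.33 to 6.20) in CON input. Cntnap2 exon 5, with nearly the GC content of its intron, had 5 and 6 reads in FC and CON H4K5ac-ChIP and 5 in each input. In Grik4 the order in FC input was the other way, with a ratio of 0.68 (0.08 to 2.64) from 2 reads on the GC-rich exon 12 and 1.73 (0.53 to 4.45) from 5 reads on exon 20. The FC input ratio was higher on the GC-rich exon in Cntnap2, Ryr2 and Dnahc8 and lower in Grik4, with intervals that overlapped in each of these pairs. Pairs chosen alike in other gene lists, not shown, had 0.34 and 0.69 in Cacna1d, 0.20 and 0.45 in Smarca2 and 0.72 and 0.68 in Col14a1. In these the GC-rich exon is given first, and the intervals overlapped too. No order between exons of a pair could be read at this depth.

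Across all 25024 exons the median length was 146 bp. GC content was 49.4% in the exons and 42.4% in the flanks, and 21523 exons (86.0%) had a higher GC content than their own flank, with a median difference of 6.88 percentage points and a range from -3.95 at the 5th to 16.7 at the 95th percentile. CpG dinucleotides numbered 2.46 per 100 bases of exon and 0.842 per 100 bases of flank. The last intron bases before the exon were AG in 99.9% of exons and the first after it were GT in 99.0% and GC in 0.855%. T made up 48.2% and C 28.0% of bases 3 to 20 before the exon, the last exon base was G in 80.2%, and base 5 of the following intron was G in 77.5%. Of the exons, 23892 (95.5%) were coding over their full length, 23291 (93.1%) were in every transcript that spans them and 9638 (38.5%) had a length that is a multiple of 3, which keeps the reading frame when the exon is skipped.

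Exons and flanks also differed in how many reads could be placed on them. Each read is counted 75 bp from its start, towards the centre of the sequenced fragment. Of the possible read starts counted in exons, 97.1% began a 32-base sequence that occurs once in the genome, against 92.8% in flanks. These positions are the same for all 6 libraries.

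The libraries held 14549689 to 45673239 aligned reads, of which 11516839 to 38243819 remained on the autosomes after keeping 1 read per 5′ position and strand. A median of 1 to 4 reads fell on an exon and 7 to 26 on its flank, and 6.69% (FC input) to 44.4% (FC IgG-IP) of the exons had no read. The FC input stood apart from the other libraries in its dependence on GC content. Across the 25024 flanks, Spearman's rho between read count and GC content was 0.77 in FC input and 0.15 in CON input, 0.42 and 0.32 in FC and CON H4K5ac-ChIP, and -0.06 and -0.02 in FC and CON IgG-IP. These are descriptions over regions that share a library.

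Summed read density was higher over the exons than over their flanks in all 6 libraries, the control libraries included. Taken singly, 54.1% of exons in FC and 53.1% in CON H4K5ac-ChIP were above their own flank. The shares were 46.6% and 48.6% in FC and CON IgG-IP, and 64.7% and 51.9% in FC and CON input. In H4K5ac-ChIP the exons had 0.647 RPKM (reads per kb of sequence, scaled to the autosomal reads of the library) in FC and 0.636 RPKM in CON, against 0.556 and 0.563 RPKM in the flanks. The exon-to-flank ratio was 1.165 (1.155 to 1.174) from 66393 exon reads in FC and 1.130 (1.121 to 1.138) from 76806 exon reads in CON. In IgG-IP, with 21436 and 26191 exon reads, it was 1.095 (1.079 to 1.110) for FC and 1.102 (1.088 to 1.116) for CON. In input, with 100846 and 58069 exon reads, it was 1.400 (1.391 to 1.409) for FC and 1.118 (1.108 to 1.127) for CON. The FC input had the highest ratio, and the other 5 libraries lay between 1.095 and 1.165.

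Relative to input, the exon excess of H4K5ac-ChIP was below 1 in FC and close to 1 in CON. The ratio of H4K5ac-ChIP divided by that of input was 0.832 (0.823 to 0.841) for FC and 1.011 (0.999 to 1.023) for CON. Against IgG-IP it was 1.064 (1.047 to 1.081) for FC and 1.025 (1.010 to 1.041) for CON. The choice of the control library thus decided on which side of 1 the FC value lay, and with the CON input in place of the FC input it was 1.042 (1.030 to 1.055). Between the groups, the ratio of FC to CON was 1.031 (1.020 to 1.042) for H4K5ac-ChIP, 0.993 (0.975 to 1.013) for IgG-IP and 1.253 (1.239 to 1.267) for input.

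The profile along the exon had the same outline in each library. Read density relative to the flank was highest inside the exon, at 1.24 for FC and 1.21 for CON H4K5ac-ChIP, 1.21 and 1.18 in IgG-IP and 1.48 and 1.23 in input, with each exon cut into 20 bins. The front of the exon held more than its rear, with means over the first and last 10 bins of 1.19 and 1.14 in FC H4K5ac-ChIP, 1.15 and 1.11 in CON H4K5ac-ChIP, 1.16 and 1.08 in CON input and 1.42 and 1.38 in FC input. Density came back to the level of the flank within about 100 bp on both sides. In the first 100 bp it averaged 1.06 upstream and 1.09 downstream in FC H4K5ac-ChIP and 1.05 on both sides in CON H4K5ac-ChIP, and from 200 to 300 bp it lay between 1.00 and 1.03 in all libraries on both sides.

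**Figure D1:**
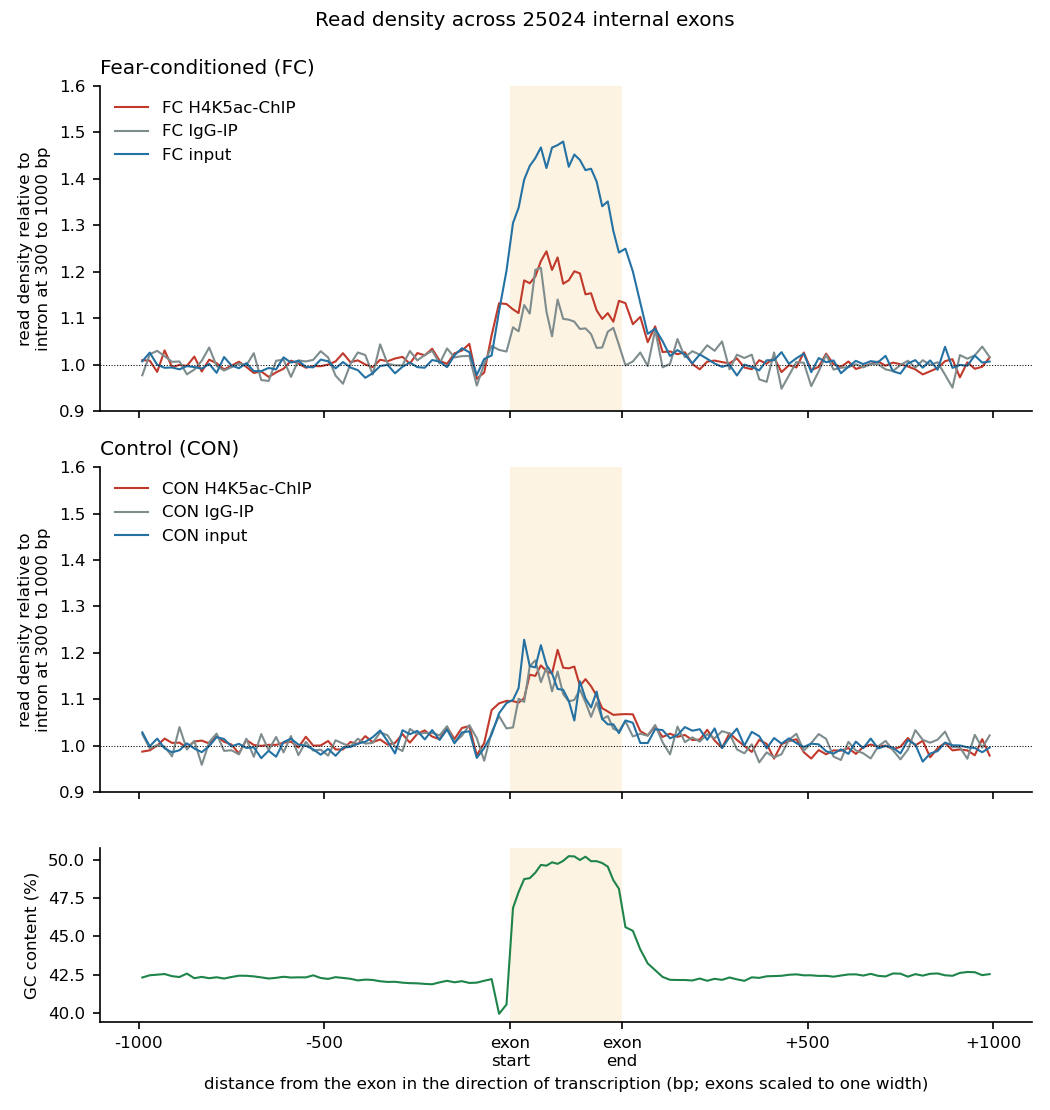
Read density of the 6 libraries from 1000 bp before to 1000 bp after the 25024 exons, in bins of 20 bp in the introns and 20 bins in the exon (shaded, scaled to one width), relative to the mean density at 300 to 1000 bp, with the GC content of the same bins below. All libraries have their highest values over the exon, FC input up to 1.48 and the others up to 1.24.

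In the bins centred 90 and 70 bp before the exon the libraries had lows of 0.955 to 0.980, which in 5 of them lay within the range of the bins farther than 300 bp from the exon and in FC H4K5ac-ChIP just under it, at 0.970 beside a lowest far bin of 0.973. The lowest GC content, 39.9%, came at 30 bp before the exon. The positions in the profile are those of read starts moved by 75 bp towards the centre of the sequenced fragment. Each read is thus drawn 75 bp from its own start. The flanks themselves were nearly equal, with upstream reads over downstream reads of 1.001 (0.996 to 1.007) in FC and 1.009 (1.004 to 1.014) in CON H4K5ac-ChIP, and 0.994 to 1.005 in the 4 control libraries.

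To set the exons beside intron of equal composition, each flank was cut into windows of 150 bp, and read density was measured against the difference in GC content between a window and the mean of its own flank. The density of intron windows of the GC content of the exon gives an expected exon-to-flank ratio. It was 1.091 for FC and 1.044 for CON H4K5ac-ChIP, 0.994 and 0.995 in IgG-IP, 1.288 in FC input and 1.008 in CON input. The observed ratio was above the expected one in every library, by 1.067 (1.059 to 1.075) and 1.083 (1.075 to 1.090) times in FC and CON H4K5ac-ChIP, 1.101 (1.087 to 1.116) and 1.108 (1.094 to 1.121) times in IgG-IP, and 1.087 (1.081 to 1.094) and 1.109 (1.100 to 1.118) times in input. After this step the 6 libraries lay within 1.067 to 1.109, and the H4K5ac-ChIP libraries were the lowest 2. The intervals of observed over expected values take the expected ratio as exact.

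Summed over all 25024 exons, the H4K5ac-ChIP libraries had no larger exon excess than input or IgG-IP once GC content was taken into account. Divided by the same value of input, the GC-adjusted ratio of H4K5ac-ChIP was 0.982 (0.972 to 0.991) for FC and 0.976 (0.966 to 0.987) for CON. Divided by that of IgG-IP it was 0.969 (0.954 to 0.984) for FC and 0.977 (0.964 to 0.991) for CON. The FC and CON values against input stood at 0.832 and 1.011 before the adjustment and lay within each other's interval after it, and the FC to CON ratio for H4K5ac-ChIP was 0.986 (0.976 to 0.996). By the methods of the study, chromatin was sheared before immunoprecipitation to fragments longer than these exons. The DNA was sonicated again to shorter fragments only afterwards. A fragment caught by the antibody could thus reach from exon into flank, so an H4K5ac excess confined to the exon could be missed here.

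**Figure D2:**
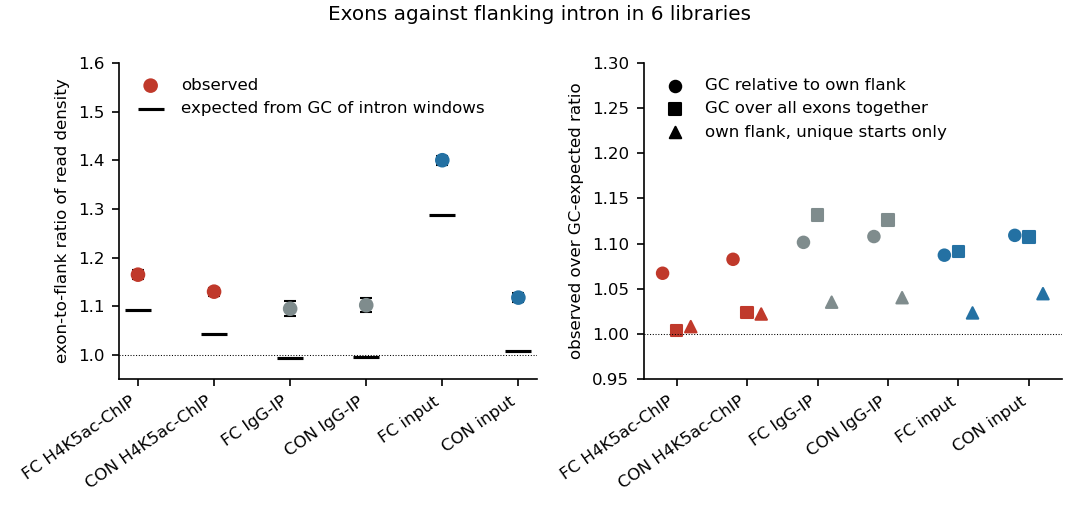
Left, the exon-to-flank ratio of read density in each of the 6 libraries (points, with 95% counting intervals) and the ratio expected from intron windows of equal GC content (bars). Right, the observed over the expected ratio with GC content taken relative to the own flank (circles), over all exons together (squares), and relative to the own flank with read starts at unique 32-base sequences only (triangles). The FC input is highest on the left at 1.40 and lies among the other libraries on the right.

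How firmly the remaining excess stood depended on which positions were counted and on how the expectation was built. With read starts limited to unique 32-base sequences in exons and windows, the observed over expected ratio was 1.008 for FC and 1.022 for CON H4K5ac-ChIP, 1.035 and 1.040 in IgG-IP and 1.023 and 1.045 in input. With GC content compared over all exons together instead of within each flank it was 1.004 and 1.024 in H4K5ac-ChIP, 1.132 and 1.126 in IgG-IP and 1.091 and 1.107 in input. Under all 3 settings, both H4K5ac-ChIP libraries lay below the IgG-IP and input libraries of their own group.

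The exons differed by their GC content relative to the flank. In FC H4K5ac-ChIP the exon-to-flank ratio was 1.025 (1.001 to 1.049) for the 3493 exons with less GC than their flank and 1.273 (1.238 to 1.308) for the 2151 exons with at least 15 points more. In CON H4K5ac-ChIP the same exons had 1.094 (1.071 to 1.118) and 1.137 (1.107 to 1.166), and all 5 classes lay between 1.094 and 1.142. The FC input ran from 0.876 (0.857 to 0.896) to 1.891 (1.850 to 1.933), while the CON input ran the other way, from 1.139 (1.112 to 1.167) to 1.074 (1.042 to 1.107). FC and CON IgG-IP ran from 1.134 and 1.142 to 0.999 and 1.027. The ratio of H4K5ac-ChIP to input went from 1.170 (1.133 to 1.208) to 0.673 (0.650 to 0.697) in FC and from 0.960 (0.930 to 0.992) to 1.058 (1.017 to 1.101) in CON. Against IgG-IP the FC value went the other way, from 0.904 (0.863 to 0.946) to 1.273 (1.203 to 1.348), and the CON value from 0.958 (0.920 to 0.999) to 1.107 (1.051 to 1.165). Relative to the ratio expected from GC content, the FC values of the lowest and highest class were 1.034 and 0.980 against input and 0.963 and 0.946 against IgG-IP. The CON values were 0.994 and 0.959 against either control, so that the highest class lay under 1 and under the lowest class.

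Intron windows were compared with exons of equal GC difference. In FC input, windows with 8 to 12 points less GC than their flank had 0.52 times the density of the flank and windows with 12 to 16 points more had 1.57 times, and exons of the same classes had 0.55 and 1.71 times. In FC H4K5ac-ChIP the windows had 0.76 and 1.14 times and the exons 0.90 and 1.26 times. In CON H4K5ac-ChIP they were 0.84 and 1.04 times for windows and 1.01 and 1.13 times for exons, and in CON input 0.90 and 0.95 times for windows and 1.09 and 1.07 times for exons. In FC and CON IgG-IP they were 0.91 and 0.94, and 0.94 and 0.93 times for windows and 1.03 and 1.04, and 1.19 and 1.05 times for exons. Exons were above intron windows in both of these GC classes in each library. Over all GC classes the exception was the lowest class in FC input, more than 16 points below the flank, where the 6 exons had 0.20 times and the windows 0.26 times the density of the flank.

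**Figure D3:**
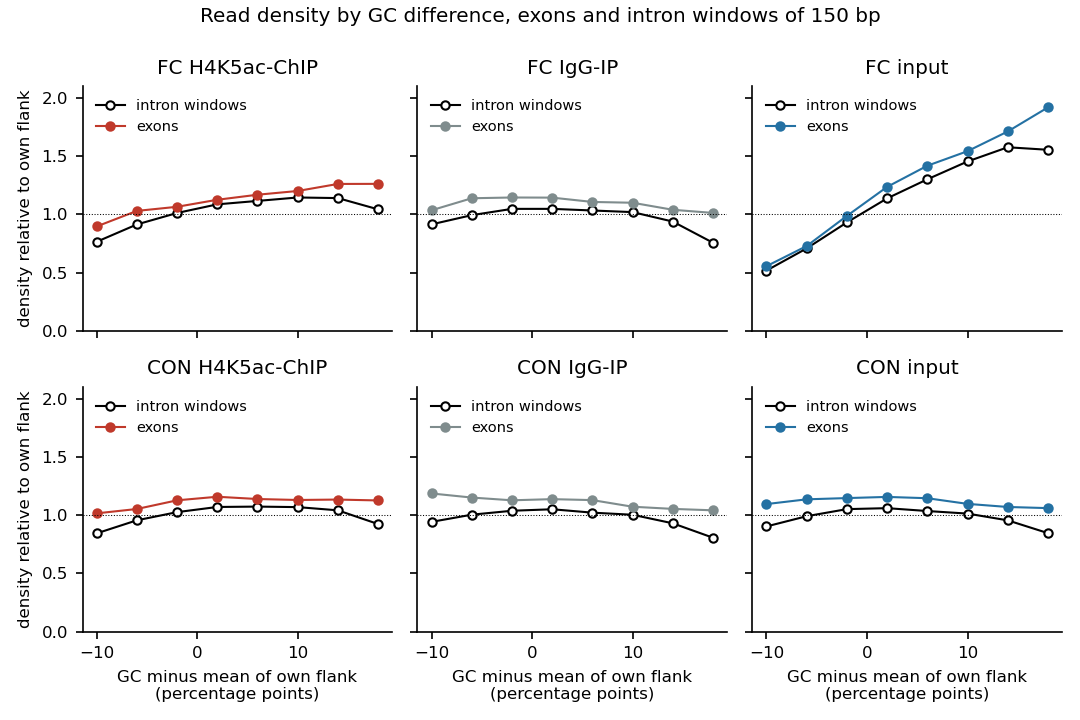
Read density relative to the own flank (y axis) of exons (filled points) and of 150-bp intron windows (open points), against the difference in GC content from the flank in classes of 4 points (x axis; the last class holds 16 points and more; classes of fewer than 200 exons are not drawn), for the 6 libraries. Only FC input has a steep slope, from 0.55 to 1.71 times for exons between the classes of -12 to -8 and of 12 to 16 points.

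The ratio differed in all libraries between exons grouped by their share of unique positions. Read density was taken per base, unique or not, and the causes of these differences were not tested. The 488 exons in which fewer than 50% of the starts were unique had a ratio of 0.573 (0.506 to 0.645) in FC and 0.592 (0.530 to 0.659) in CON H4K5ac-ChIP, 0.560 and 0.611 in IgG-IP and 0.809 and 0.553 in input. The 22022 exons in which every start was unique had 1.181 (1.171 to 1.191) and 1.144 (1.135 to 1.153) in H4K5ac-ChIP, 1.108 and 1.115 in IgG-IP and 1.420 and 1.134 in input. In the 4881 exons whose flanks were also wholly unique, the ratio was 1.079 (1.060 to 1.098) and 1.056 (1.039 to 1.073) in H4K5ac-ChIP, 1.015 (0.983 to 1.048) and 1.040 (1.011 to 1.070) in IgG-IP, and 1.363 (1.343 to 1.383) and 1.051 (1.030 to 1.071) in input. In these exons the FC IgG-IP interval held 1 and the other 5 did not. Relative to the ratio expected from GC content, they had 0.984 (0.968 to 1.001) in FC and 1.010 (0.995 to 1.026) in CON H4K5ac-ChIP, 1.024 (0.993 to 1.055) and 1.051 (1.023 to 1.079) in IgG-IP, and 1.042 (1.028 to 1.057) and 1.046 (1.027 to 1.065) in input.

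Longer exons had a lower ratio in most libraries. From exons of 100 to under 150 bp (13309) to those of 250 to 300 bp (943), it went from 1.147 to 1.098 in CON and from 1.171 to 1.125 in FC H4K5ac-ChIP, from 1.123 to 1.023 and from 1.136 to 0.975 in FC and CON IgG-IP, and from 1.139 to 1.075 in CON input. FC input had 1.380 and 1.392. The mean GC difference from the flank was 5.98 points in the short and 9.01 points in the long class.

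Exons were also grouped by distance from the TSS. In H4K5ac-ChIP, exons 5 to 10 kb from a TSS had 1.150 in FC and 1.129 in CON, and those over 50 kb away had 1.194 and 1.123. FC input went from 1.331 to 1.559 over the same classes, which had a mean GC difference of 6.18 and 8.29 points, and its value relative to the ratio expected from GC content also went from 1.041 to 1.175. CON input was at 1.112 and 1.129, FC IgG-IP at 1.066 and 1.131 and CON IgG-IP at 1.102 and 1.101. The ratio was above 1 on all 19 in each of the 6 libraries. It ranged over chromosomes from 1.11 to 1.22 in FC and from 1.07 to 1.18 in CON H4K5ac-ChIP, with chromosome 7 lowest and chromosome 10 highest in both. The ratio of H4K5ac-ChIP to input was above 1 on 0 of 19 chromosomes in FC and on 14 of 19 in CON, and that of H4K5ac-ChIP to IgG-IP on 18 of 19 in FC and on 15 of 19 in CON. After adjustment for GC content, these counts were 6 in FC and 4 in CON against input, and 4 in FC and 5 in CON against IgG-IP.

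Exons were also grouped by features tied to splicing. Exons in every transcript that spans them and the 1733 exons skipped in some had 1.168 and 1.134 in FC and 1.131 and 1.122 in CON H4K5ac-ChIP. In IgG-IP they had 1.101 (1.085 to 1.118) and 1.003 (0.947 to 1.061) in FC and 1.102 in both classes in CON, and in input 1.402 and 1.373 in FC and 1.118 and 1.107 in CON. The intervals of the classes were apart in FC IgG-IP and overlapped in the other 5 libraries. Exons whose length is a multiple of 3 and other exons had 1.156 and 1.170 in FC and 1.118 and 1.137 in CON H4K5ac-ChIP, 1.092 and 1.097 in FC and 1.107 and 1.099 in CON IgG-IP, and 1.396 and 1.403 in FC and 1.106 and 1.125 in CON input. With the exons split into 4 equal groups by the pyrimidines in the 20 bp before them, from the fewest to the most, the ratio went from 1.154 to 1.167 in FC and from 1.122 to 1.142 in CON H4K5ac-ChIP, from 1.083 to 1.109 and from 1.116 to 1.106 in FC and CON IgG-IP, and from 1.423 to 1.372 and from 1.114 to 1.120 in FC and CON input. Exons coding over their full length and the 1132 that are not had 1.164 and 1.170 in FC and 1.131 and 1.100 in CON H4K5ac-ChIP, 1.097 and 1.040 in FC and 1.101 and 1.127 in CON IgG-IP, and 1.401 and 1.385 in FC and 1.120 and 1.076 in CON input. Skipped exons lay in flanks with more H4K5ac-ChIP reads, 0.617 and 0.625 RPKM in FC and CON against 0.551 and 0.559 RPKM for exons in every transcript.

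The exon excess was smallest in the genes with the most H4K5ac. Genes were ranked by the H4K5ac-ChIP density of the gene body outside the exons and their 1-kb surroundings, averaged over both libraries, and split into 5 groups of equal size with medians of 0.247, 0.462, 0.594, 0.706 and 0.887 RPKM. From the lowest to the highest group, the ratio went from 1.205 (1.176 to 1.236) to 1.101 (1.083 to 1.118) in FC and from 1.168 (1.141 to 1.195) to 1.082 (1.066 to 1.098) in CON H4K5ac-ChIP. The control libraries, which did not enter the ranking, moved alike, from 1.115 to 1.015 and from 1.131 to 1.037 in FC and CON IgG-IP and from 1.534 to 1.271 and from 1.150 to 1.071 in FC and CON input. Flank GC content was 40.1% in the lowest and 45.4% in the highest group, and its part in these differences was not tested. Relative to the ratio expected from GC content, the lowest and highest group had 1.114 and 1.003 (0.988 to 1.018) in FC H4K5ac-ChIP. CON H4K5ac-ChIP had 1.125 and 1.030. FC and CON IgG-IP went from 1.124 to 1.022 and from 1.140 to 1.040. FC and CON input went from 1.212 to 0.977 and from 1.138 to 1.064.

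The H4K5ac-ChIP ratio was also divided by that of the controls. Against CON input it was 1.016, 1.012, 1.032, 1.039 and 1.009 in CON. Against IgG-IP it lay between 1.065 and 1.090 in FC and between 1.012 and 1.052 in CON. Against FC input it was 0.786 (0.763 to 0.809), 0.852 (0.832 to 0.872), 0.841, 0.856 and 0.866 (0.847 to 0.885) in FC, so that the lowest group stood apart from the other 4. Relative to the ratio expected from GC content these FC values were 0.919, 1.007, 0.993, 1.008 and 1.027. In the same form the CON values against input lay between 0.968 and 0.998, and those against IgG-IP between 0.964 and 0.992 in FC and between 0.961 and 1.000 in CON.

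**Figure D4:**
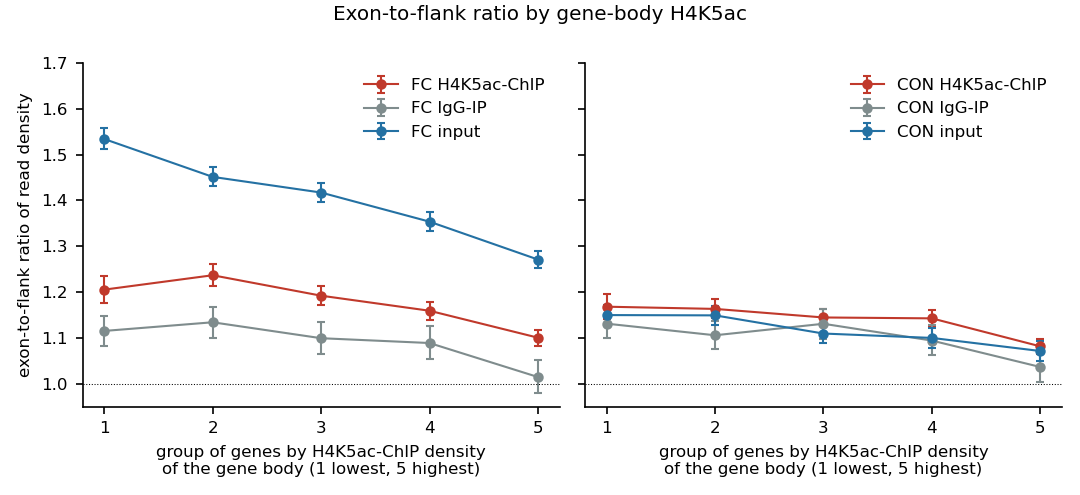
Exon-to-flank ratio of read density (y axis, with 95% counting intervals) in 5 equal groups of genes by the H4K5ac-ChIP density of their gene body (x axis, 1 lowest), FC libraries on the left and CON libraries on the right. In each library the highest group has the lowest ratio, from 1.01 in FC IgG-IP to 1.27 in FC input.

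The ratio differed widely between genes. Among the 417 genes with at least 10 of these exons, which held 6207 exons, the ratio was above 1 in 324 genes (77.7%) in FC H4K5ac-ChIP, in 307 (73.6%) in CON H4K5ac-ChIP, in 393 (94.2%) in FC input and in 309 (74.1%) in CON input. The median gene had 1.18 in FC and 1.13 in CON H4K5ac-ChIP, with 5th to 95th percentiles of 0.789 to 1.71 and 0.776 to 1.59. In IgG-IP, with fewer reads, they were 0.501 to 1.73 in FC and 0.638 to 1.71 in CON. The share of genes above 1 was not counted in IgG-IP, where the median gene had 1.10 in FC and in CON.

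The genes with the most such exons encode giant proteins. Syne1, a nuclear envelope protein with 53 exons on chromosome 10, had 222 and 272 exon reads and ratios of 1.38 (1.19 to 1.59) in FC and 1.40 (1.22 to 1.59) in CON H4K5ac-ChIP. Its IgG-IP ratios were 0.96 (0.70 to 1.28) and 1.05 (0.80 to 1.37), and its input ratios 1.45 in FC and 0.94 (0.77 to 1.14) in CON. In Syne1 both H4K5ac-ChIP libraries were above both IgG-IP libraries, with intervals that overlapped, and above the CON input, whose interval lay under theirs. For single genes the interval of a ratio between libraries was not computed.

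Lrp1b, a receptor of the LDL receptor family with 51 exons on chromosome 2, had a high ratio in every library. It was 1.58 (1.29 to 1.92) and 1.44 (1.20 to 1.72) in FC and CON H4K5ac-ChIP, 1.33 and 1.34 in IgG-IP, and 2.27 and 1.65 in input. Fras1, an extracellular matrix protein with 47 exons on chromosome 5, had 1.40 (1.16 to 1.67) and 1.13 (0.93 to 1.35) in H4K5ac-ChIP, 0.84 and 1.10 in IgG-IP, and 1.62 and 0.99 in input. The gene with the most exons, Dnahc8 (54, on chromosome 17), had ratios from 1.01 to 1.17 in all 6 libraries, with intervals that held 1 in each, and a mean GC difference of only 2.77 points.

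Glutamate receptors, which carry fast excitatory transmission in the hippocampus, had 115 such exons in 19 of the 24 listed genes. Their summed exon-to-flank ratio was 1.20 (1.08 to 1.34) for FC and 1.25 (1.12 to 1.38) for CON H4K5ac-ChIP, and 1.20 and 1.22 in IgG-IP. In input it was 1.68 in FC and 1.02 (0.90 to 1.15) in CON. The H4K5ac-ChIP ratio over input was 0.72 (0.62 to 0.83) for FC and 1.22 (1.04 to 1.43) for CON, and over IgG-IP 1.00 (0.81 to 1.24) and 1.02 (0.84 to 1.24). Relative to the ratio expected from GC content, the values over input were 0.84 and 1.16, and those over IgG-IP were 0.88 and 0.94. All 3 genes with at least 10 exons were above 1 in both H4K5ac-ChIP libraries. The share over all such genes was 77.7% in FC and 73.6% in CON. In input 3 were above 1 in FC and 2 in CON, beside 94.2% and 74.1% of all such genes. IgG-IP had 1 above 1 in FC and 2 in CON, with no share over all such genes counted. Grik4 (14 exons, chromosome 9) had 1.06 (0.79 to 1.39) in FC and 1.36 (1.04 to 1.74) in CON H4K5ac-ChIP. Gria4, an AMPA receptor subunit (11 exons, chromosome 9), had 1.13 and 1.48. Grid1, a delta-type receptor (10 exons, chromosome 14), had 1.20 and 1.48 (1.06 to 2.04). All 3 were higher in CON than in FC, with intervals that overlapped.

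Voltage-gated and leak channels of neurons had 174 exons in 26 of 29 genes, with a ratio of 1.22 (1.11 to 1.34) in FC and 1.09 (1.00 to 1.19) in CON H4K5ac-ChIP. IgG-IP had 1.16 and 0.99 and input 1.46 and 1.14. Of 4 genes with at least 10 exons, 4 were above 1 in FC and 3 in CON H4K5ac-ChIP, with the same counts in FC and CON input. Over all such genes the shares were 77.7% and 73.6% in H4K5ac-ChIP and 94.2% and 74.1% in input. IgG-IP had 3 above 1 in FC and 2 in CON, with no share over all such genes counted. The exception in CON H4K5ac-ChIP was Cacna1d, an L-type calcium channel (17 exons, chromosome 14), with 0.91 (0.67 to 1.21) beside 1.27 (0.96 to 1.65) in FC. The sodium leak channel gene Nalcn (15 exons) had 1.28 in both groups, and the potassium channel gene Kcnt2 (13 exons) had 1.12 in FC and 1.30 in CON.

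Of the 7 lists, synaptic adhesion and scaffold genes had the largest ratio in FC input, 1.84 (1.72 to 1.96), beside 1.16 (1.07 to 1.26) in CON input. They held 273 exons in 32 of 36 genes, with a mean GC difference of 10.1 points. In H4K5ac-ChIP the ratio was 1.27 (1.18 to 1.38) for FC and 1.15 (1.07 to 1.24) for CON, and in IgG-IP it was 1.15 and 1.27. Of 14 genes with at least 10 exons, 14 were above 1 in FC and 10 in CON H4K5ac-ChIP. The share over all such genes was 77.7% in FC and 73.6% in CON. In input 14 were above 1 in FC and 13 in CON, beside 94.2% and 74.1% of all such genes. IgG-IP had 10 above 1 in FC and 11 in CON, with no share over all such genes counted. In Cntnap2 (17 exons, chromosome 6) the ratio was 1.28 and 1.18 in H4K5ac-ChIP, 1.31 and 1.48 in IgG-IP, 2.92 (2.28 to 3.73) in FC input and 1.01 (0.72 to 1.40) in CON input. Cntnap5a of the same family had 1.29 and 1.45 in H4K5ac-ChIP, and the contactin gene Cntn5 had 1.05 (0.64 to 1.63) and 1.63 (1.16 to 2.25).

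Calcium, PI3K and mTOR signalling genes, among them the kinase cascades studied for memory, held 252 exons in 26 of 34 genes. The ratio was 1.14 (1.06 to 1.23) for FC and 1.06 (0.99 to 1.14) for CON H4K5ac-ChIP, 1.10 and 1.18 in IgG-IP, and 1.55 and 1.12 in input. Of 7 genes with at least 10 exons, 4 were above 1 in each H4K5ac-ChIP library. The share over all such genes was 77.7% in FC and 73.6% in CON. In input 6 were above 1 in FC and 4 in CON, beside 94.2% and 74.1% of all such genes. IgG-IP had 4 above 1 in FC and 6 in CON, with no share over all such genes counted. Ryr2, the calcium release channel with 47 exons on chromosome 13, had 135 exon reads and 1.57 (1.30 to 1.89) in FC H4K5ac-ChIP, and 125 exon reads and 0.98 (0.81 to 1.18) in CON. The same direction was present in input, with 1.92 (1.64 to 2.24) in FC and 1.06 (0.85 to 1.30) in CON, and IgG-IP had 1.57 and 1.40. Ryr3, its paralogue, had 1.13 and 1.03 and the IP3 receptor gene Itpr1 had 1.19 and 1.27 (1.05 to 1.53) in FC and CON H4K5ac-ChIP.

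Chromatin regulators, which include the enzymes that write and remove histone marks, held 212 exons in 43 of 60 genes. Their flanks were rich in H4K5ac-ChIP reads, at 0.712 RPKM in FC and 0.735 in CON beside 0.427 and 0.444 in IgG-IP. The ratio was 1.19 (1.10 to 1.28) for FC and 1.17 (1.09 to 1.25) for CON H4K5ac-ChIP, 1.17 and 0.98 in IgG-IP and 1.41 and 1.00 in input. In CON this list had a ratio over input of 1.16 (1.03 to 1.31) and over IgG-IP of 1.19 (1.02 to 1.40), while in FC they were 0.84 (0.76 to 0.94) and 1.02 (0.86 to 1.20). After adjustment for GC content, the CON values were 1.11 and 1.13 and the FC values 1.04 and 0.89. Among the 7 lists the interval of the CON ratio over input lay above 1 for chromatin regulators and glutamate receptors. Of 7 genes with at least 10 exons, 6 were above 1 in FC and 4 in CON H4K5ac-ChIP. The share over all such genes was 77.7% in FC and 73.6% in CON. In input 6 were above 1 in FC and 3 in CON, beside 94.2% and 74.1% of all such genes. IgG-IP had 3 above 1 in FC and 2 in CON, with no share over all such genes counted. The histone demethylase gene Kdm4c (12 exons) had 1.83 (1.26 to 2.60) in FC and 1.30 (0.90 to 1.82) in CON H4K5ac-ChIP. It was at 1.69 or above in all 4 control libraries. The deacetylase gene Hdac9 (12 exons) had 1.79 (1.15 to 2.71) in FC and 0.86 (0.51 to 1.36) in CON, 0.83 and 0.77 in IgG-IP, and 2.08 and 1.14 in input. Smarca2, an ATPase of the SWI/SNF remodelling complex (18 exons), had 1.08 and 0.96.

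The lists of genes best known outside the brain were cilia and collagen genes. Their summed ratios were above 1 in both H4K5ac-ChIP libraries, but the interval of collagens in FC held 1. Axonemal dyneins and cilia genes had flanks with few H4K5ac-ChIP reads, 0.288 RPKM in FC and 0.281 in CON beside 0.459 and 0.451 in IgG-IP, and their 454 exons in 18 of 34 genes had a ratio of 1.13 (1.03 to 1.22) in FC and 1.09 (1.00 to 1.17) in CON H4K5ac-ChIP. Of 13 genes with at least 10 exons, 9 were above 1 in each H4K5ac-ChIP library. The share over all such genes was 77.7% in FC and 73.6% in CON. In input 12 were above 1 in FC and 10 in CON, beside 94.2% and 74.1% of all such genes. IgG-IP had 9 above 1 in FC and 8 in CON, with no share over all such genes counted. In FC and CON H4K5ac-ChIP, Dnahc11 (43 exons) had 1.15 and 1.16 and Dnahc6 (40 exons) 0.91 and 1.01. Collagens, structural proteins of connective tissue, had 83 exons in 17 of 37 genes with 1.04 (0.85 to 1.27) in FC and 1.35 (1.14 to 1.58) in CON H4K5ac-ChIP, 0.92 and 1.11 in IgG-IP, and 1.49 and 1.20 in input. Both collagen genes with at least 10 exons were above 1 in each H4K5ac-ChIP library and in each input. Over all such genes the shares were 77.7% and 73.6% in FC and CON H4K5ac-ChIP and 94.2% and 74.1% in input. IgG-IP had 1 collagen gene above 1 in FC and 1 in CON, with no share over all such genes counted. In H4K5ac-ChIP, Col14a1 had 1.15 and 1.27 and Col12a1 had 1.19 and 1.59 (1.03 to 2.36) in FC and CON. Col11a1, with 8 exons, had 1.43 (0.65 to 2.83) from 10 exon reads in FC and 1.93 (1.07 to 3.31) from 17 in CON. Its ratios in FC and CON were 2.36 and 1.68 in IgG-IP and 2.72 and 1.46 in input.

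**Figure D5:**
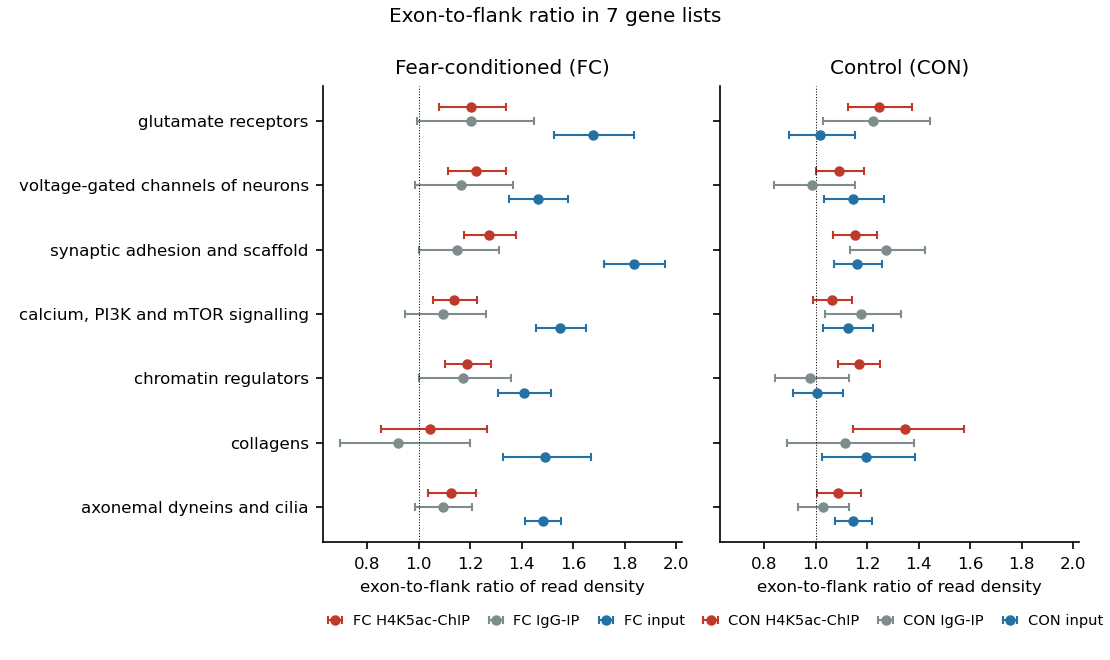
Summed exon-to-flank ratio of read density (x axis, with 95% counting intervals) of the exons in 7 gene lists (y axis), FC libraries on the left and CON libraries on the right. FC input lies to the right of the other FC libraries in every list, from 1.41 in chromatin regulators to 1.84 in synaptic adhesion genes.

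Phactr3, a phosphatase and actin regulator singled out by the study, had only 4 exons that met the conditions, in a gene body of 1.24 RPKM. Its ratio was 0.82 (0.50 to 1.29) for FC and 1.02 (0.64 to 1.57) for CON H4K5ac-ChIP, and 0.82 and 0.50 in input, with 5 to 24 exon reads in these 4 libraries. No exon of Sfi1 met them. For H4K5ac-ChIP over IgG-IP, the interval of the list ratio held 1 in each list and group except chromatin regulators in CON, at 1.19 (1.02 to 1.40). The list ratio of FC to CON H4K5ac-ChIP lay between 0.77 (0.60 to 0.99) for collagens and 1.12 (0.99 to 1.27) for channels.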

How the data were processed

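H4K5ac-ChIP, IgG-IP and input from the hippocampus of FC and CON mice gave 6 libraries, grouped by their labels, with 1 library per group and antibody. The files deposited by the authors hold SOLiD reads placed on mm9 by the Bioscope aligner, and their score is the mapping quality of the alignment, from 4 to 100, and not a count or a coverage. Reads of 25 to 50 aligned bases were used whatever their score, 1 per 5′ position and strand, which removed 11.5% to 17.9% of autosomal reads, and each was placed 75 bp downstream of its 5′ end. Transcripts came from GENCODE for mm9.

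The exon-to-flank ratio is the summed read density of the exons over that of the intron from 300 to 1000 bp on both sides. Its interval is the exact binomial (Clopper-Pearson) interval, that of an observed over expected ratio is the exact Poisson interval, and a ratio of ratios has a normal interval on the log scale. The intervals of observed over expected and of GC-adjusted ratios use the exon counts alone and treat the expected value as exact. They leave out the counting error of the flank windows. Reads are not independent molecules, so the intervals cover counting error at most. The expectation from GC content used 8 flank windows of 150 bp per exon and classes of 4 percentage points. On data simulated over the 25024 exons at the read numbers of 1 library (FC H4K5ac-ChIP), it returned the exon fold to within 0.864%. The simulated reads followed a set slope with GC content, and every position was treated as readable. The figure therefore does not give the accuracy on the real libraries. The tools were Python 3.11.15, NumPy 2.4.6, SciPy 1.17.1, pandas 2.3.3 and numba 0.67.0, and figures with matplotlib 3.10.9.

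The genes named are, in each list, the 3 with the most of these exons, the 5 with the most of all and Sfi1 and Phactr3. A further gene list is not reported here. The single exons are those of highest and lowest GC difference in the leading gene of each list, of which 8 are shown. The exons and gene lists were chosen with earlier results of these data known. The alternatives were all reads, coverage of the aligned bases, a flank from 700 bp, omission of the 1% of exons with the most input reads, a score of at least 20, GC content over all exons together and windows of 100 bp. Unique 32-base starts and the groups of exons by them were added after seeing the data.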

Additional observations from a re-analysis of the deposited data

Results flagged for a closer look

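The exon-to-flank ratio of H4K5ac-ChIP over that of input was 0.832 in FC and 1.011 in CON, on opposite sides of 1, with the CON interval of 0.999 to 1.023 including 1. With 1 library per group the difference was not tested. The input libraries differed more than the H4K5ac-ChIP libraries, with a ratio of 1.400 in FC and 1.118 in CON input beside 1.165 and 1.130 in FC and CON H4K5ac-ChIP. With the input libraries exchanged between the groups, the value was 1.042 in FC and 0.807 in CON. Relative to the ratio expected from GC content it was 0.982 in FC and 0.976 in CON with each group's own input, and 0.962 and 0.996 with the inputs exchanged.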

How the results depend on the processing

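The exon-to-flank ratio was above 1 in every library under every alternative run. Coverage of the aligned part of each read gave 1.209 and 1.150 in FC and CON H4K5ac-ChIP, 1.387 and 1.146 in FC and CON input, and 0.872 for H4K5ac-ChIP over input in FC. A score of at least 20 gave 1.179 and 1.142 in FC and CON H4K5ac-ChIP, 1.115 and 1.117 in FC and CON IgG-IP, 1.443 and 1.133 in FC and CON input, 0.817 for H4K5ac-ChIP over input in FC, and 1.084 and 1.099 for the observed over the GC-expected ratio of FC and CON H4K5ac-ChIP. Unique 32-base starts gave 1.120 and 1.085 in H4K5ac-ChIP, 1.051 and 1.057 in IgG-IP, 1.347 and 1.074 in input, and 1.008 and 1.022 for the observed over the GC-expected ratio. All deposited reads gave 1.023 for H4K5ac-ChIP over input in CON. The observed over the GC-expected ratio was 1.004 and 1.024 with GC content taken over all exons together, and 1.082 in FC with windows of 100 bp. The causes of these shifts were not tested. In all, 26 of 60 values left their interval and none changed its side of 1 from a value whose interval excluded it. That count is by value only, and the observed over the GC-expected ratio of FC H4K5ac-ChIP came as near to 1 as 1.004. The planned omission of soft-masked bases was not run because the genome sequence used marks none. No paired analysis was possible because each group has 1 library per antibody and no test was made. Depth limits single exons most, with a median of 1 to 4 reads per exon.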
